A study of Saccharomyces cerevisiae with 6 samples.

Results

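The genes described here are 37 general stress genes of the budding yeast Saccharomyces cerevisiae, of the type that the transcription factors Msn2 and Msn4 switch on, together with MSN2 and MSN4 themselves. They were taken by name from the gene column of the deposited table and leave out chaperones and the enzymes of carbohydrate storage. All 37 were found among the 6400 named entries, and all passed the minimum mean level of 1 TPM (transcript abundance as a share of the library, scaled by gene length). Poly(A) RNA had been sequenced from W303, a laboratory strain, in groups titled T1, T2 and T3, with libraries A and B in each. The titles mark every library as an arrest sample, and the design names populations of 3 mean cell sizes. Neither a size, a time nor the means of arrest is given for a group, so the groups are compared by name. All groups share the strain and the arrest, and the labels give no further genotype and no unarrested control.

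Msn2 and Msn4 are related zinc-finger activators that enter the nucleus when growth signals through protein kinase A and TOR weaken, and bind a short promoter site called the stress-response element. Their targets form the larger part of the program that yeast turns on alike under heat, oxidants, osmotic shock, starvation and entry into stationary phase. The products include scavengers of oxidants, reserve isoenzymes of central metabolism, small hydrophilic proteins and cell wall proteins.

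In T3, 32 of the 37 genes rose against T1 and 1 fell, with a median change of 2.04-fold. Over all 6046 genes tested, 31% rose, 16.9% fell, and the median log2 change was 0.09 (limma on log2(TPM + 1), adjusted p under 0.05). The rises ran from DDR2 at 4.26-fold down to UBI4 at 1.27-fold. The gene that fell was YGP1, and MSN2, SPI1, FMP45 and HBT1 did not pass the test. In bulk RNA of this kind, a change in every cell and a change in the share of cells that express a gene cannot be told apart. Both T3 libraries lay above both T1 libraries for 33 members, which held for 45.7% of all genes tested. Both lay below for 1 member, as they did for 29.3% of all genes.

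The stress-response element has the core AGGGG, which reads CCCCT when it lies on the other strand. Both forms were searched in the R64 reference genome, which is of the strain S288C, so a W303 base may differ. From 250 bases before the start codon to 50 bases into the gene, 21 of 37 members held at least 1 site, against 21.6% of 5967 protein-coding genes, and 9 members held at least 2, against 2.92%. Over the 600 bases before the start codon, a window chosen after the data were seen, 33 members held at least 1 site, against 39.6% of 5965 genes, and 21 held at least 2, against 10.7%. MSN4, GRE1, ALD2 and UBC5 had no AGGGG in that longer window. The members were chosen as genes of the type that Msn2 and Msn4 switch on, so an excess of sites was partly built into the choice. Of the 76 sites, 5 lay inside a neighbouring annotated gene, 3 of them upstream of HSP12 within the reading frame YFL015C. The stretches below were chosen to show clustered sites of genes with large rises (HSP12, DDR2, TFS1, DCS2), genes with many sites and middling rises (XBP1, PNC1) and the sites of SPI1 and YGP1, which did not rise. The stretch of DDR2 leaves out its site 472 bases before the start codon, since only sites within 250 bases of the nearest were printed. The sites of XBP1, SPI1 and YGP1 all lay outside the shorter window. All are RefSeq R64 sequence on the gene's strand, 5′ to 3′, with AGGGG or CCCCT in capitals.
HSP12 (chrVI:106811-107080, + strand, 445 to 176 bases before the start codon): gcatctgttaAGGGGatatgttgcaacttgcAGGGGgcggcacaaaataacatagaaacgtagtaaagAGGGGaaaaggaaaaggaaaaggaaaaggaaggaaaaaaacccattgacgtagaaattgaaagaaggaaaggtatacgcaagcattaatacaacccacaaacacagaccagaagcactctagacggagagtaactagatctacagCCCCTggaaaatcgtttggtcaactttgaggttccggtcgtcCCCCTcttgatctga
DDR2 (chrXV:231916-232013, - strand, 258 to 161 bases before the start codon): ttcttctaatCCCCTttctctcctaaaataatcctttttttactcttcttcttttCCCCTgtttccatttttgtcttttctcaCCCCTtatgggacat
TFS1 (chrXII:513888-513955, - strand, 134 to 67 bases before the start codon): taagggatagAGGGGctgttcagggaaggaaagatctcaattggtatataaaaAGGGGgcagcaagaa
DCS2 (chrXV:657094-657130, + strand, 170 to 134 bases before the start codon): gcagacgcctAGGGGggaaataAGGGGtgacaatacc
XBP1 (chrIX:177565-177833, - strand, 583 to 315 bases before the start codon): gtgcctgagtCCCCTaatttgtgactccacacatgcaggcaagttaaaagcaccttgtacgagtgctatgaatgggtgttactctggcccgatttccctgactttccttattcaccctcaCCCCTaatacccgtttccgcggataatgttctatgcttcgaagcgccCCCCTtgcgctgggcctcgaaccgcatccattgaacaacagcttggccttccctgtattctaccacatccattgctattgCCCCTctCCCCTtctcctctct
PNC1 (chrVII:428161-428266, - strand, 319 to 214 bases before the start codon): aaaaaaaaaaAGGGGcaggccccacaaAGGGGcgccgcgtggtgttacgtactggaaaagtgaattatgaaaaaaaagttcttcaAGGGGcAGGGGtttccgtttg
SPI1 (chrV:467987-468126, + strand, 383 to 244 bases before the start codon): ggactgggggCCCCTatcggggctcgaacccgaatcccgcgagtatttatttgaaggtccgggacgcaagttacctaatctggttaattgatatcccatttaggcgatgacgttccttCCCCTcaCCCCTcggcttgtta
YGP1 (chrXIV:336101-336125, + strand, 444 to 420 bases before the start codon): ttctcgaagaAGGGGccgaaaatta

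Over the 600 bases before the start codon, the median change of the members was not higher with more sites. Of 12 members with 3 or more sites in the 600 bases, 11 rose in T3 against T1, with folds of 0.96 (SPI1) to 4.26 (DDR2) and a median log2 change of 0.95. Of 9 members with 2 sites 8 rose, with a median log2 change of 1.08, and of 12 members with 1 site 9 rose, with a median of 1.13. All 4 members with no site rose, with a median of 1.15. From 250 bases before the start codon to 50 into the gene, every member with a site rose except HBT1, with 1 site. The members without a site there were MSN2, SPI1, FMP45 and YGP1, which did not rise, and others that did. Those others were MSN4, XBP1, USV1, HOR7, SIP18, GRE1, TMA10, ALD2, PHM7, DCS1, UBI4 and UBC5. In T3 against T1, folds ran from 1.21 (HBT1) to 4.26 (DDR2) for members with a site in that window. For members without one they ran from 0.83 (YGP1) to 2.87 (TMA10). Medians by number of sites were not computed for that window. The medians above are for the 600 bases, a window chosen after the data were seen, and do not stand for the shorter one. These letters are a description of the windows searched, and binding was not measured.

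**Figure D1:**
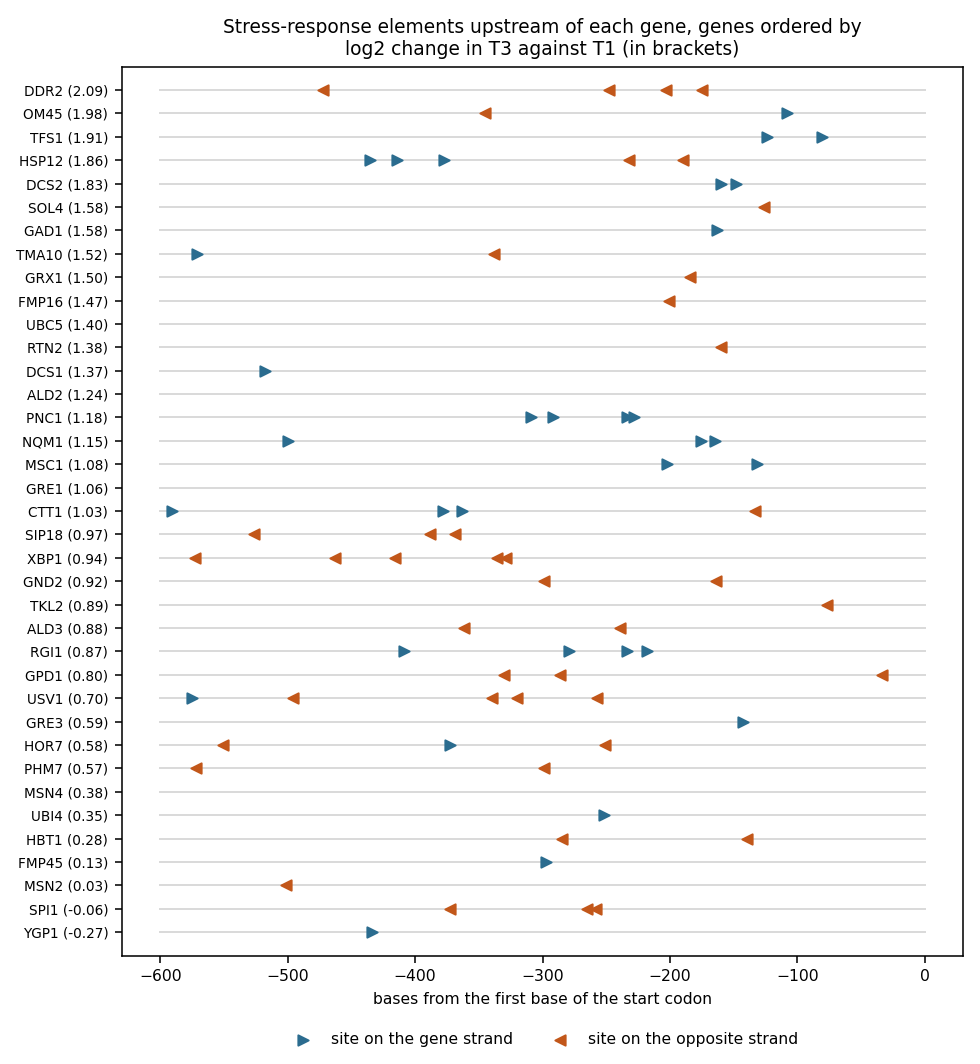
Position of each AGGGG or CCCCT over the 600 bases before the start codon (x axis, bases) for the 37 genes (rows), ordered by their log2 change in T3 against T1, given in brackets; arrowheads mark the strand of the site. Rows with 3 or more sites stand at the top (DDR2, 2.09), in the middle (PNC1, 1.18) and near the bottom (SPI1, -0.06).

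Depth was recovered from TPM times exonic length, which gave 17872645 to 23534511 fragments on genes per library. The members held from 46 fragments (SIP18, in 1 library) to 28230 (YGP1), so counting error was small for most of them. The labels do not state whether libraries A and B were grown separately, so the p-values may reflect only technical spread. No member overlaps another gene in the annotation used. Summed over the 37 genes, the level was 6565 and 5680.0 TPM in T1, 8434 and 8225 TPM in T2, and 11424 and 10654 TPM in T3. HOR7 alone made up 32.9 to 45.8% of these sums. Without it, the sum was 3559 and 3270.5 TPM in T1, 4984 and 5009.5 TPM in T2, and 7669 and 6360 TPM in T3. The libraries of T3 differed in the same direction for most members. Replicate A of T3 lay above replicate B for 34 of 37 members (64.6% of all genes), replicate A of T1 above B for 23 (32.7%), and replicate A of T2 above B for 13 (23.4%). Cytosolic ribosomal protein genes held 43.75 and 41.8% of all TPM in T1, 41.5 and 39.1% of it in T2, and 35.2 and 37.1% of it in T3. TPM is a share, and the part of this shift in the members' rises was not tested beyond the rescalings given in the closing section.

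**Figure D2:**
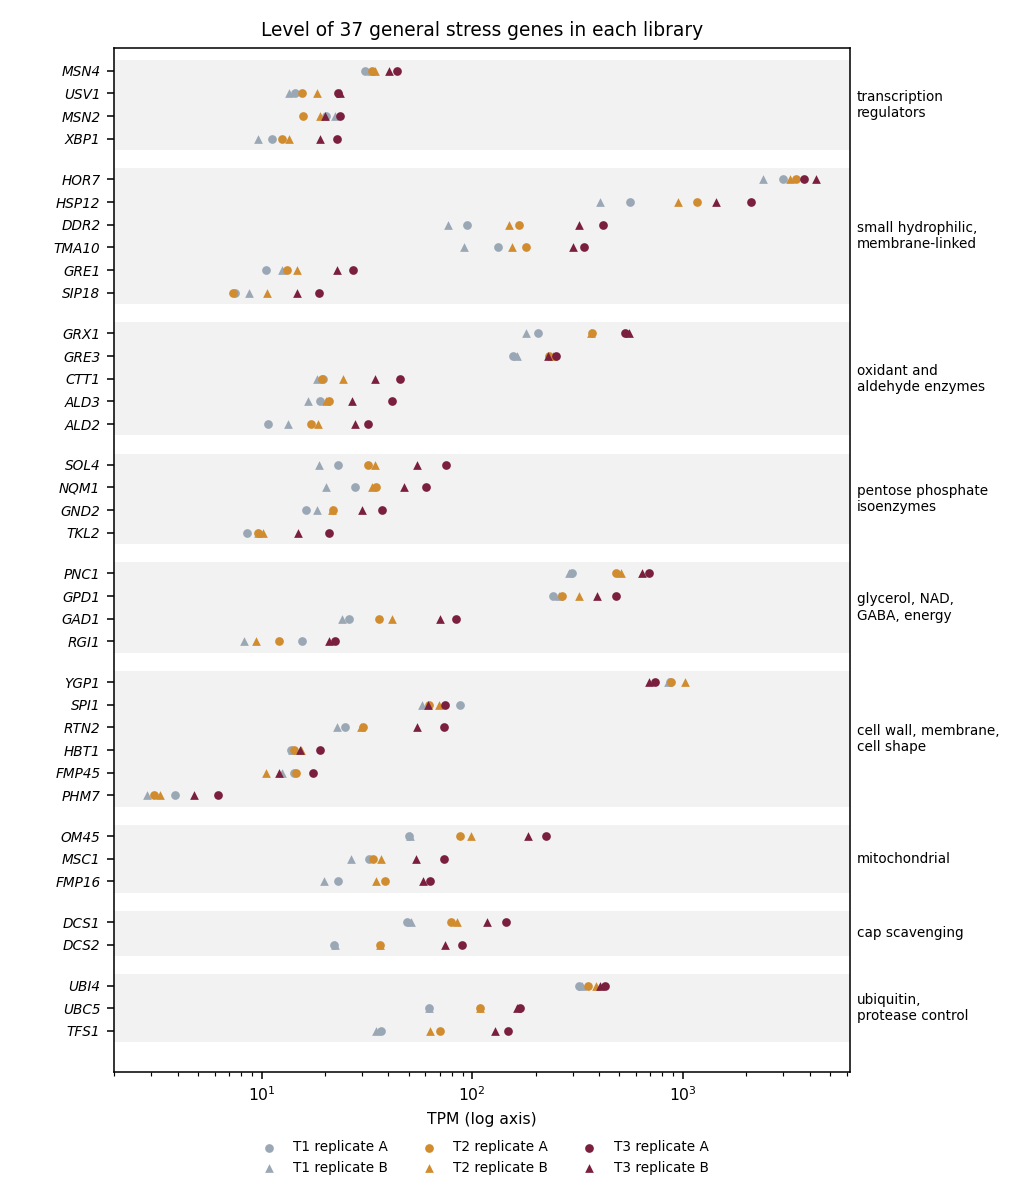
TPM on a log axis (x) of each of the 37 genes (rows, grouped by role and ordered by mean level in T3) in the 6 libraries, with the group shown by colour and the replicate by marker. Most rows run from T1 at the left to T3 at the right, while the points of MSN2, SPI1 and FMP45 are mixed and the T3 points of YGP1 lie at the left.

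The transcription factor genes were expressed at low to moderate levels. MSN2 (YMR037C, chromosome XIII, 344403 to 346517) lay at 20.2 and 22.3 TPM in T1, 15.7 and 19.0 TPM in T2, and 23.6 and 20.03 TPM in T3, so that T3 and T1 overlapped. Its log2 change in T3 against T1 was 0.03 (SE 0.12, limma adjusted p = 0.863). MSN4 (YKL062W, chromosome XI, 323228 to 325120) lay at 30.9 and 33.2 TPM in T1, 33.3 and 34.4 TPM in T2, and 43.8 and 40.1 TPM in T3. It rose 1.30-fold (SE 0.10 on the log2 scale, limma adjusted p = 0.00738), with both T3 libraries above all others, but the call was lost without T3 replicate A (limma adjusted p = 0.0842). Both changes were smaller than the members' median of 2.04-fold. XBP1, which encodes a stress-induced repressor of cyclin genes, averaged 20.9 ± 2.64 TPM in T3 and 10.4 ± 1.07 TPM in T1 (SD, n = 2 each) and rose 1.92-fold (limma adjusted p = 4.34e-05). USV1, a zinc-finger factor gene induced by stress, averaged 23.3 ± 0.223 TPM in T3 and 13.9 ± 0.717 TPM in T1 and rose 1.63-fold (limma adjusted p = 0.000213). Its relative RGM1 averaged 39.4 ± 8.48 TPM in T3 and 50.7 ± 4.93 TPM in T1 and fell (log2 change -0.37, limma adjusted p = 0.0324). That fall was lost without T1 replicate A (limma adjusted p = 0.101), without T3 replicate B (0.414), with no filter on low levels (0.148) and without the abundance trend (0.0745).

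All 6 genes of small hydrophilic or membrane-linked proteins rose in T3 against T1. HSP12 (YFL014W, chromosome VI, 107256 to 107585) encodes a small protein that binds and steadies membranes and is widely used as a reporter of Msn2 and Msn4. It lay at 563.3 and 404.6 TPM in T1, 1169.7 and 943.8 TPM in T2, and 2113 and 1430.4 TPM in T3. No groups overlapped, and the T3 libraries lay farther apart than those of the other groups. It rose 3.64-fold in T3 against T1 (SE 0.17 on the log2 scale, limma adjusted p = 1.06e-06). DDR2 (YOL052C-A, chromosome XV, 231570 to 231755), a gene of unknown function named for its response to DNA damage, lay at 94.2 and 76.8 TPM in T1, 166.1 and 149.1 TPM in T2, and 415.7 and 321.9 TPM in T3. Its 4.26-fold rise (SE 0.13, limma adjusted p = 2.99e-08) was the largest of the 37.

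HOR7, a relative of DDR2 that responds to high osmolarity, was the most abundant member in every library. It lay at 3006 and 2409 TPM in T1, 3449 and 3215 TPM in T2, and 3755 and 4293 TPM in T3, and rose 1.49-fold (limma adjusted p = 0.000261). Here T3 replicate B was the higher one, against the pattern of most members. Its coding sequence had 62.6% identical columns with DDR2 in a global alignment, and the longest run shared without a mismatch was 24 bases. TMA10, whose product associates with ribosomes, averaged 320.0 ± 29.1 TPM in T3 and 112.4 ± 29.5 TPM in T1 and rose 2.87-fold (limma adjusted p = 1.62e-06). Its relative STF2, a hydrophilin gene first known for a factor of the ATP synthase inhibitor, averaged 951.5 ± 54.0 TPM in T3 and 358.3 ± 53.5 TPM in T1 and rose 2.66-fold (limma adjusted p = 2.53e-07). The hydrophilin genes SIP18 and GRE1, whose products are linked to survival of drying, stayed rare. SIP18 averaged 16.8 ± 2.78 TPM in T3 and 8.06 ± 0.861 TPM in T1 (1.95-fold, limma adjusted p = 0.000352), and GRE1 averaged 24.9 ± 3.01 TPM in T3 and 11.5 ± 1.41 TPM in T1 (2.08-fold, limma adjusted p = 1.55e-05).

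The 5 genes of enzymes that act on oxidants and aldehydes all rose. GRX1 (YCL035C, chromosome III, 60841 to 61173), a glutaredoxin gene, lay at 205.1 and 179.1 TPM in T1, 369.4 and 365.4 TPM in T2, and 533.8 and 552.4 TPM in T3. The groups were well apart at each step, and it rose 2.82-fold in T3 against T1 (SE 0.09, limma adjusted p = 2.68e-08). CTT1 (YGR088W, chromosome VII, 654634 to 656322), the cytosolic catalase gene, lay at 19.6 and 18.3 TPM in T1, 19.3 and 24.4 TPM in T2, and 45.2 and 34.7 TPM in T3. T1 and T2 overlapped and T3 lay above both, with a 2.04-fold rise over T1 (SE 0.14, limma adjusted p = 3.83e-05). GRE3 (YHR104W, chromosome VIII, 323409 to 324392), an aldose reductase gene, lay at 156.1 and 163.1 TPM in T1, 232.1 and 243.2 TPM in T2, and 251.0 and 229.5 TPM in T3, so that T3 and T2 overlapped above T1. It rose in T3 against T1 (log2 change 0.59, limma adjusted p = 0.000131). The neighbouring genes ALD2 and ALD3, of cytosolic aldehyde dehydrogenases, rose 2.37-fold and 1.84-fold (limma adjusted p = 2.65e-06 and 0.00046). They share 91.8% of aligned bases and an identical run of 329 bases, longer than a read of 150 bases, and the handling of reads that match both is not given in the sources used here, so the value of each alone is uncertain. For ALD3 the T3 libraries lay apart, at 41.6 and 26.8 TPM, against 18.9 and 16.6 TPM in T1.

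The 4 stress isoenzyme genes of the pentose phosphate pathway, which makes NADPH and pentoses, all rose and stayed far below their housekeeping relatives. SOL4 (6-phosphogluconolactonase) lay at 23.0 and 18.6 TPM in T1, 32.0 and 34.4 TPM in T2, and 75.1 and 54.5 TPM in T3, a 2.99-fold rise in T3 against T1 (SE 0.14, limma adjusted p = 9.59e-07). GND2 (6-phosphogluconate dehydrogenase) rose 1.89-fold, NQM1 (transaldolase) 2.21-fold and TKL2 (transketolase) 1.86-fold, with limma adjusted p-values of 2.93e-05, 1.91e-05 and 0.000272. Their relatives, which serve the pathway in growing cells, did not rise by the test. SOL3 averaged 353.2 ± 5.26 TPM in T3 and 360.4 ± 26.9 TPM in T1, TAL1 620.2 ± 59.0 TPM in T3 and 559.5 ± 60.4 TPM in T1, and TKL1 409.4 ± 40.1 TPM in T3 and 422.6 ± 40.01 TPM in T1, and none of them passed in either direction. GND1 averaged 512.3 ± 26.8 TPM in T3 and 640.8 ± 98.0 TPM in T1 and fell (log2 change -0.31, limma adjusted p = 0.0233), a call lost without T1 replicate B (limma adjusted p = 0.279), without T3 replicate B (0.109), with no filter on low levels (0.114) and without the abundance trend (0.0743).

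The genes of glycerol, NAD and amino acid metabolism rose as well. PNC1 (YGL037C, chromosome VII, 427297 to 427947), which encodes the nicotinamidase of NAD salvage, lay at 299.3 and 286.6 TPM in T1, 483.2 and 508.1 TPM in T2, and 690.4 and 641.2 TPM in T3. It rose 2.27-fold in T3 against T1 with little spread between replicates (SE 0.08, limma adjusted p = 1.17e-07). GAD1, the glutamate decarboxylase gene of the GABA shunt, averaged 77.3 ± 9.55 TPM in T3 and 25.1 ± 1.34 TPM in T1 and rose 2.99-fold (limma adjusted p = 1.48e-07). GPD1, the NAD-dependent glycerol-3-phosphate dehydrogenase gene induced by osmotic stress, averaged 437.2 ± 64.9 TPM in T3 and 249.6 ± 11.6 TPM in T1 and rose 1.74-fold (limma adjusted p = 6.51e-05). Its relative GPD2, which responds to lack of oxygen, averaged 129.1 ± 7.35 TPM in T3 and 164.1 ± 4.49 TPM in T1 and fell (log2 change -0.35, limma adjusted p = 0.00875), a call lost without T3 replicate B (limma adjusted p = 0.0795). RGI1, a gene of energy metabolism under respiratory growth, lay at 15.5 and 8.27 TPM in T1, 12.04 and 9.36 TPM in T2, and 22.4 and 20.8 TPM in T3. It rose 1.83-fold in T3 against T1 (limma adjusted p = 0.0033), although its T1 libraries lay far apart, and the call was lost with no filter on low levels (0.0863).

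The cell wall, membrane and cell shape genes were the least uniform role group: 2 of 6 rose and 1 fell in T3 against T1. These shares, 33.3% and 16.7%, were near the 31% and 16.9% of all genes tested. RTN2, a reticulon gene of the endoplasmic reticulum, lay at 24.8 and 22.8 TPM in T1, 30.4 and 29.7 TPM in T2, and 73.7 and 54.8 TPM in T3, a 2.60-fold rise (SE 0.13, limma adjusted p = 1.2e-06). PHM7, a membrane protein gene of unknown function and the rarest member, averaged 5.48 ± 1.03 TPM in T3 and 3.37 ± 0.711 TPM in T1. Its 1.48-fold rise (limma adjusted p = 0.0326) was lost without T1 replicate B (limma adjusted p = 0.195), without T3 replicate A (0.23), and with no filter on low levels (0.0541). YGP1 (YNL160W, chromosome XIV, 336545 to 337609), which encodes a secreted glycoprotein induced on nutrient limitation, went the other way. It lay at 864.9 and 853.7 TPM in T1, 882.5 and 1021 TPM in T2, and 736.8 and 691.9 TPM in T3, with both T3 libraries below all others. The fall against T1 was small (log2 change -0.27, SE 0.09, limma adjusted p = 0.0206) and was lost without T3 replicate B (limma adjusted p = 0.116), with no filter on low levels (0.0647) and without the abundance trend (0.0696).

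SPI1, a GPI-anchored wall protein gene with 3 sites in the stretch shown above, all of the CCCCT form, lay at 87.2 and 57.8 TPM in T1, 62.3 and 69.4 TPM in T2, and 74.7 and 61.7 TPM in T3. All groups overlapped (limma adjusted p = 0.763 for T3 against T1), and the T1 libraries set both ends of the range. Without T1 replicate B its log2 change was -0.36 (limma adjusted p = 0.0247). Its relative SED1, a major wall mannoprotein gene, averaged 5905 ± 452 TPM in T3 and 3578 ± 143 TPM in T1 and rose 1.65-fold (limma adjusted p = 2.33e-06). FMP45, of a family of membrane proteins at eisosomes, averaged 14.9 ± 3.85 TPM in T3 and 13.3 ± 1.17 TPM in T1, a difference that missed the threshold (limma adjusted p = 0.576). HBT1, a gene of cell shape in mating, averaged 17.1 ± 2.61 TPM in T3 and 13.8 ± 0.122 TPM in T1 (limma adjusted p = 0.0836), and passed without T3 replicate B (0.0385).

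The genes of mitochondrial proteins all rose. OM45 (YIL136W, chromosome IX, 93619 to 94800), a protein gene of the mitochondrial outer membrane, lay at 49.9 and 50.9 TPM in T1, 87.6 and 98.6 TPM in T2, and 223.0 and 183.3 TPM in T3. It had the second largest rise of the members, at 3.95-fold (SE 0.11, limma adjusted p = 1.48e-08). FMP16 averaged 60.8 ± 3.15 TPM in T3 and 21.4 ± 2.31 TPM in T1 (2.76-fold, limma adjusted p = 1.67e-07), and MSC1 averaged 63.9 ± 13.7 TPM in T3 and 29.5 ± 3.94 TPM in T1 (2.11-fold, limma adjusted p = 2.45e-05).

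The cap-scavenging pair also rose. DCS1 encodes the enzyme that breaks down the cap left by mRNA decay, and DCS2 its relative, which binds it and lowers its activity. DCS2 lay at 22.1 and 22.2 TPM in T1, 36.3 and 36.5 TPM in T2, and 89.2 and 74.1 TPM in T3, and rose 3.56-fold in T3 against T1 (SE 0.11, limma adjusted p = 2.3e-08). DCS1 lay at 145.0 and 117.7 TPM in T3, against 48.95 and 51.1 TPM in T1, and rose 2.58-fold (limma adjusted p = 3.23e-07). The level of DCS1 stayed above that of DCS2 in every library.

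In the ubiquitin and protease group, TFS1 (YLR178C, chromosome XII, 513162 to 513821), which encodes an inhibitor of carboxypeptidase Y, lay at 36.8 and 35.0 TPM in T1, 70.0 and 63.3 TPM in T2, and 147.7 and 128.7 TPM in T3. It rose 3.77-fold in T3 against T1 (SE 0.10, limma adjusted p = 1.43e-08). Its adjacent relative YLR179C averaged 525.7 ± 2.77 TPM in T3 and 354.4 ± 5.80 TPM in T1 and rose 1.48-fold (limma adjusted p = 9.59e-05). UBC5, a ubiquitin-conjugating enzyme gene, lay at 62.4 and 62.3 TPM in T1, 108.4 and 109.2 TPM in T2, and 168.9 and 163.0 TPM in T3, with very close replicates. It rose 2.63-fold (SE 0.09, limma adjusted p = 5.02e-08), while its relative UBC4, which encodes a nearly interchangeable enzyme, averaged 837.3 ± 29.3 TPM in T3 and 763.6 ± 11.7 TPM in T1, short of the threshold (limma adjusted p = 0.174). UBI4, the stress polyubiquitin gene, averaged 415.6 ± 13.3 TPM in T3 and 326.9 ± 7.51 TPM in T1. Its 1.27-fold rise (limma adjusted p = 0.00462) was lost after quantile normalization (limma adjusted p = 0.174). Its 5 ubiquitin repeats are 80.3 to 90.4% identical to each other and resemble those of other ubiquitin genes, so its value is uncertain.

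**Figure D3:**
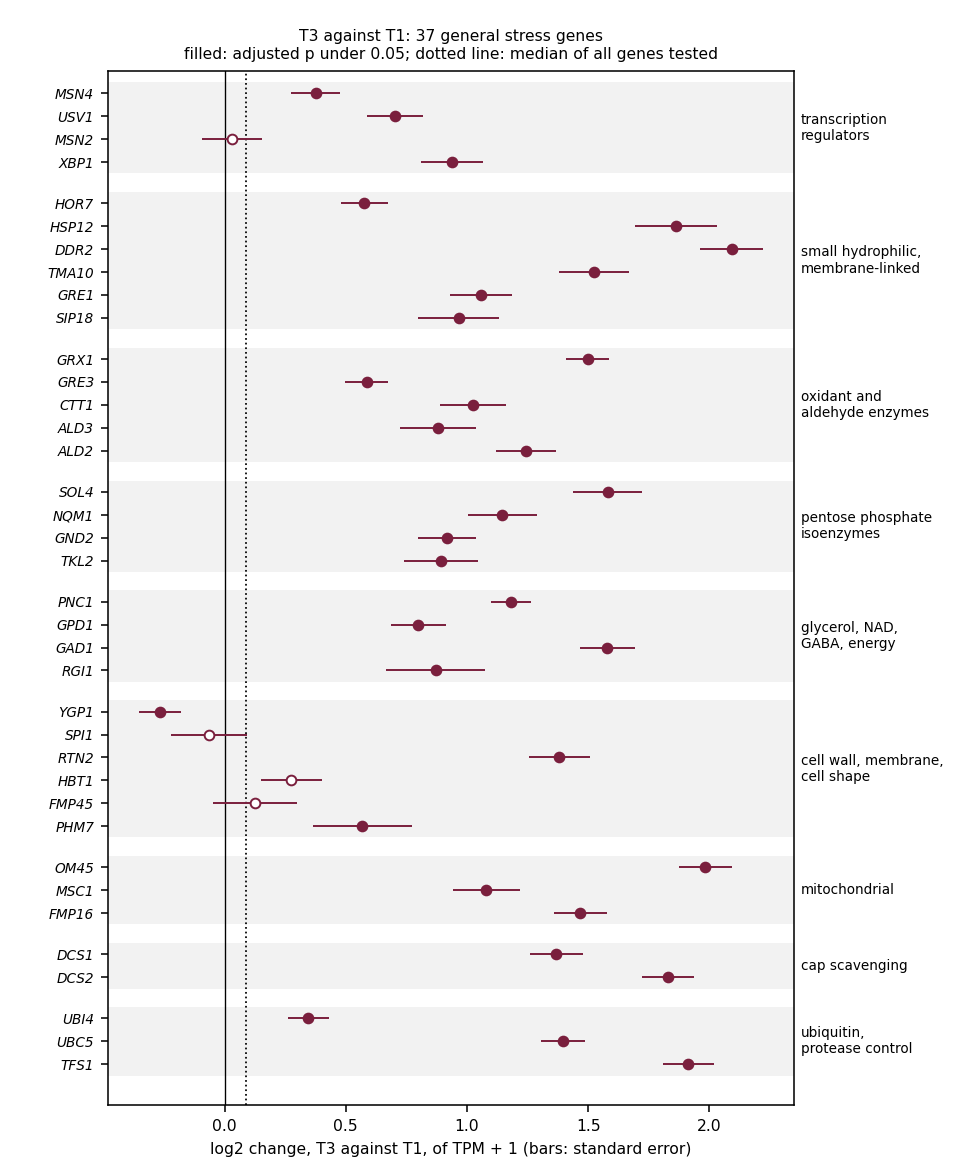
Log2 change in T3 against T1 on the log2(TPM + 1) scale (x axis) for the 37 genes (rows, grouped by role); bars are limma's standard error, filled points had an adjusted p under 0.05, and the dotted line is the median of all genes tested, 0.09. Open points are MSN2, SPI1, HBT1 and FMP45, and YGP1, at -0.27, is the filled point left of 0.

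T2 was compared with T1, and T3 with T2, to place the rises between the groups. In T2 against T1, 17 of 37 members rose and 0 fell by limma, with a median log2 change of 0.31; over all genes 11.9% rose and 6.1% fell, with a median of 0.02. Without adjustment for the number of genes, limma held 1 fall in T2 against T1, that of MSN2 (adjusted p = 0.138). The largest rises in T2 against T1 were those of HSP12 at 2.20-fold, GRX1 at 1.91-fold, DDR2 at 1.84-fold, TFS1 and OM45 at 1.83-fold and UBC5 at 1.73-fold, with limma adjusted p-values of 1.66e-05 (GRX1) to 0.000494 (HSP12). The calls of NQM1, HOR7, TMA10 and ALD2 were lost when single T1 or T2 libraries were left out, with limma adjusted p-values of 0.0577 to 0.286. With no filter on low levels 9 members rose, and HSP12 (limma adjusted p = 0.0756) and DDR2 (0.0504) were among the calls lost.

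In T3 against T2, 29 members rose and 1 fell, with a median log2 change of 0.67; over all genes 15.8% rose and 6.09% fell, with a median of 0.07. DDR2 (2.32-fold), DCS2 (2.20-fold), OM45 (2.16-fold), RTN2 (2.08-fold) and TFS1 (2.06-fold) led, with limma adjusted p-values of 1.77e-05 (DCS2) to 0.000107 (RTN2). YGP1 fell between these groups (log2 change -0.41, limma adjusted p = 0.00416), a call lost without T2 replicate B (limma adjusted p = 0.0619) and with no filter on low levels (0.0525). Without T3 replicate A, HSP12, TKL2, NQM1, GND2, XBP1, ALD3, USV1, MSN4 and PHM7 lost their call, with log2 changes of 0.237 (MSN4) to 0.543 (TKL2). A member not called in the main test passed in that setting. With no filter on low levels 14 members rose. The call of HSP12 was also lost without T2 replicate B (limma adjusted p = 0.0574) and after median-of-ratios rescaling (0.0776).

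Whether the steps differed was tested for each gene as the T3-T2 step minus the T2-T1 step. By limma 0 of 37 members passed, while 0.761% of all genes had a positive and 0.314% a negative difference. At an unadjusted p under 0.05 there were 13 members, 9 positive and 4 negative (12.9% of all genes, either sign). Among the positive were RTN2 (0.73 on the log2 scale, limma adjusted p = 0.168), RGI1 (1.05, adjusted p = 0.225), CTT1 (0.65, adjusted p = 0.266) and SIP18 (0.73, adjusted p = 0.316), and the negative ones were YGP1 (-0.55, adjusted p = 0.113), GRE3 (-0.56, adjusted p = 0.133), GRX1 (-0.37, adjusted p = 0.336) and PNC1 (-0.33, adjusted p = 0.354). Left-out libraries moved some of these past the threshold: RTN2 passed without T1 replicate A, without T1 replicate B and without T3 replicate B (limma adjusted p = 0.0402, 0.0089 and 0.0254), YGP1 without either T1 library (0.0243 and 0.0359), SIP18 without T1 replicate A (0.04), and RGI1, CTT1 and MSC1 without T1 replicate B (2.09e-07, 0.0389 and 0.0325). No member is therefore described as moving in 1 step only. The steps share the T2 libraries, so their values are not independent.

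**Figure D4:**
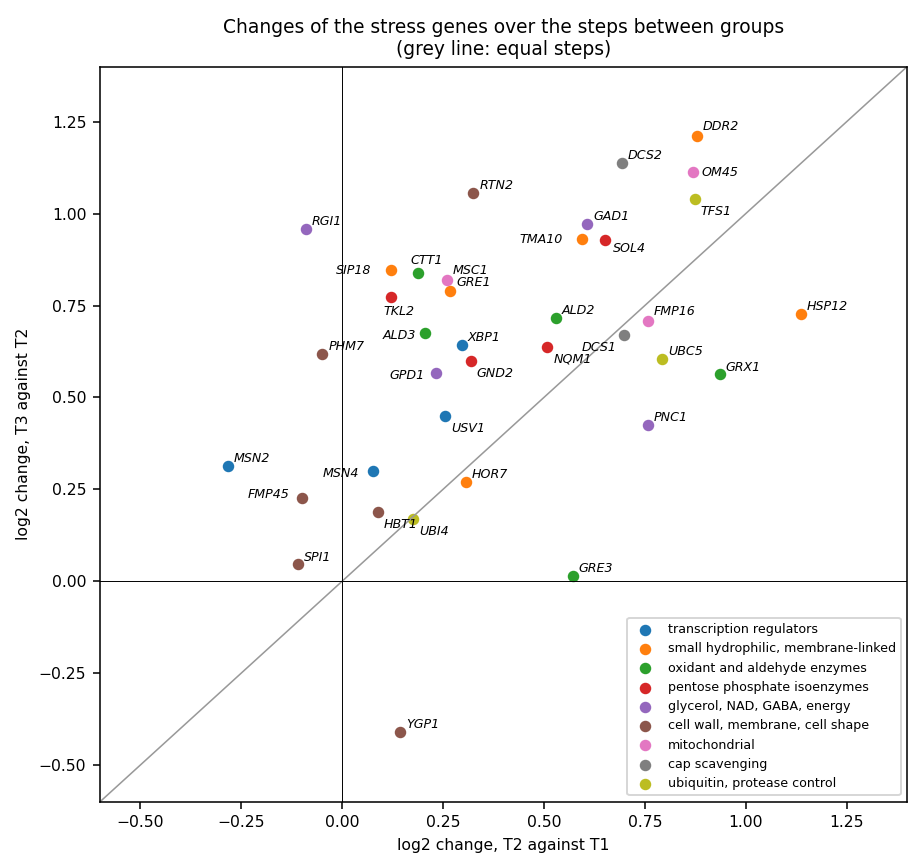
Log2 change in T3 against T2 (y axis) against that in T2 against T1 (x axis) for the 37 genes, coloured by role; the grey line marks equal changes. Most points lie right of 0 and above 0. GRE3 lies near 0 on the y axis, RTN2 and RGI1 lie high above the line, and YGP1 is the point below 0.

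The related genes gave a comparison within enzyme families, made on the same all-gene test and read as values side by side. In T3 against T1, 4 of the 15 relatives outside the members that could be tested rose (STF2, GRX2, SED1 and YLR179C) and 3 fell (GPD2, GND1 and RGM1). These shares, 26.7% and 20%, were near the 31% and 16.9% of all genes tested. GRX2, the other main glutaredoxin gene, averaged 306.4 ± 1.51 TPM in T3 and 153.9 ± 3.57 TPM in T1 and rose 1.98-fold (limma adjusted p = 6.61e-07), beside GRX1 at 2.82-fold. RTN1, the abundant reticulon gene, averaged 378.8 ± 17.0 TPM in T3 and 352.6 ± 6.45 TPM in T1, and CTA1, the peroxisomal catalase gene, 8.38 ± 0.917 TPM in T3 and 9.02 ± 0.443 TPM in T1, and neither passed the test. RGI2, the relative of RGI1, lay at 0.201 and 0.570 TPM in T1, 0.0772 and 0.545 TPM in T2, and 0.802 and 1.55 TPM in T3, under the minimum mean level, and was not tested. Apart from ALD2 and ALD3, the longest identical run within a pair was 25 bases (GPD1 and GPD2), well under a read length.

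**Figure D5:**
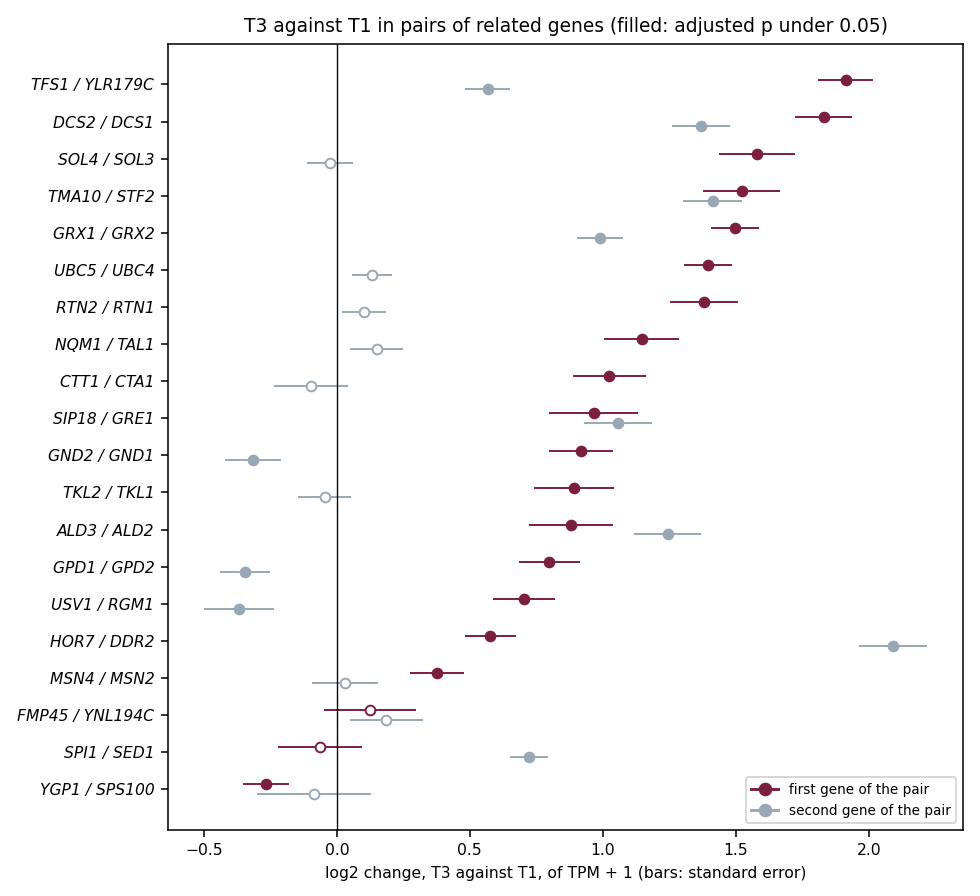
Log2 change in T3 against T1 (x axis) of both genes of each pair of relatives (rows), with limma's standard error as bars and filled points for an adjusted p under 0.05. SOL4, UBC5, RTN2, NQM1, CTT1, GND2, TKL2, GPD1 and USV1 are filled right of 0, with a relative no higher than TAL1 at 0.15. Both points are filled right of 0 for DCS2 and DCS1, TMA10 and STF2, and SIP18 and GRE1. The same holds for GRX1 and GRX2, TFS1 and YLR179C, HOR7 and DDR2, and ALD3 and ALD2. RGI1 and RGI2 are not drawn.

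The genes of 26 regulators of Msn2 and Msn4 were read from the same test. In T3 against T1, 10 rose and 3 fell, with a median log2 change of 0.04, against 0.09 over all genes. These shares, 38.5% and 11.5%, were near the 31% and 16.9% of all genes tested. Protein kinase A keeps Msn2 and Msn4 out of the nucleus. The catalytic subunit gene TPK2 averaged 73.6 ± 5.93 TPM in T3 and 45.6 ± 0.366 TPM in T1 and rose 1.60-fold (limma adjusted p = 9.83e-05), and BCY1, the regulatory subunit gene, rose 1.43-fold (0.00111). CYR1, the adenylate cyclase gene, rose 1.39-fold, and PDE1, the gene of the low-affinity phosphodiesterase that breaks down cyclic AMP, rose most of the 26, at 113.0 ± 10.5 TPM in T3 and 45.8 ± 1.82 TPM in T1 (2.43-fold, limma adjusted p = 2.55e-07). PDE2, the high-affinity one, averaged 50.4 ± 0.148 TPM in T3 and 53.4 ± 9.95 TPM in T1 (limma adjusted p = 0.687).

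The kinase genes RIM15 and YAK1, whose products act toward stress gene expression when protein kinase A is low, rose 1.66-fold and 1.59-fold (limma adjusted p = 0.000208 and 0.000519), and BMH2, a 14-3-3 protein gene, rose 1.44-fold (0.000324). The falls were PSR1 and WHI2, of a phosphatase that acts on Msn2, and MCK1, a kinase gene, at log2 changes of -0.42, -0.32 and -0.36 (limma adjusted p = 0.00534, 0.0136 and 0.00934). WHI2 was not called without T1 replicate B, T3 replicate A or T3 replicate B (limma adjusted p = 0.0534 to 0.0931), nor MCK1 without T1 replicate B (0.1) or T3 replicate B (0.0721). The small rises of RIM11 (1.25-fold, limma adjusted p = 0.0238) and IGO1 (1.22-fold, 0.0329) were lost without T1 replicate B (0.167 and 0.153), without T3 replicate A for RIM11 (0.182) and without T3 replicate B for IGO1 (0.248), and both were lost after each rescaling of the libraries and with no filter on low levels (0.0578 and 0.0692), that of IGO1 also without the abundance trend (0.0634). GIS1, of a factor that acts beside Msn2 and Msn4 in starvation, lay at 15.0 and 12.8 TPM in T1, 8.64 and 10.02 TPM in T2, and 12.8 and 12.3 TPM in T3. It did not pass in T3 against T1 (limma adjusted p = 0.452). In T3 against T2 it rose 1.32-fold (limma adjusted p = 0.0427). That call was lost after each rescaling (0.0683 and 0.104), with no filter on low levels (0.0983) and without the abundance trend (0.0503). It was lost as well with the replicate letter as a block (0.0619). The same held without T2 replicate A, T3 replicate A or T3 replicate B, where GIS1 had log2 changes of 0.302, 0.373 and 0.424. It fell in T2 against T1 (log2 change -0.52, limma adjusted p = 0.0133), a call lost without T1 replicate A (0.072), without T2 replicate A (0.101) and with no filter on low levels (0.0662).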

How the data were processed

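The deposited TPM values were used as the authors made them; STAR 2.5.2b, Subread 1.5.2, featureCounts and build R64 are named in the submitters' processing notes. Their settings, strand use and handling of multi-mapped reads are not given in the sources used here, so sense and antisense reads of a gene cannot be told apart. The table held 6401 entries, and 1 without a gene name (4.74 to 5.83 TPM) was left out. The RefSeq R64 annotation held 6081 of the 6400 gene names. Fragments were recovered as TPM times exonic length over the value of 1 fragment; at most 500 fragments, 99.84 to 99.93% of open reading frames lay within 0.1 of a whole number. These totals cover counting error only.

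Group means of all 6 libraries were fitted with limma 3.58.1 (R 4.3.3) on log2(TPM + 1), with an abundance trend, over the 6046 genes whose mean reached 1 TPM (3 residual and 10.7 prior degrees of freedom). Folds are on that scale and understate the change of rare genes. Tests were two-sided with Benjamini-Hochberg adjustment over all 6046 genes at 0.05, and were checked on simulated data. Means are given ± SD of 2 libraries. The members, lists of relatives and regulators, tests and 15 alternatives were chosen with earlier results of these data known; all members are named, and other genes come from those lists. Sites were counted in windows on the start codon with Python 3.11.15, and pairs were aligned with Biopython 1.88; pandas 2.3.3, NumPy 2.4.6 and matplotlib 3.10.9 made tables and plots. 1 regulator on the list is not reported here.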

Additional observations from a re-analysis of the deposited data

How the results depend on the processing

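In T3 against T1 the number of members that rose was 30 to 33 when 1 library was left out and stayed within 1.5 times 32 under all 15 alternatives. The number that fell was 1 in the main test, 0 without a filter on low values, 0 without the abundance trend and 0 to 2 with 1 library left out. Without the filter, the rises were 9 in T2 against T1 and 14 in T3 against T2, against 17 and 29, and the fall in T3 against T2 was not called (0); this setting adds near-silent genes to the fit of the abundance trend. With 1 library left out, T2 against T1 held 14 to 19 rises and 0 to 2 falls, and T3 against T2 held 21 to 31 rises and 0 to 1 falls. For the difference between steps, 0 to 4 members were positive and 0 to 2 negative with 1 library left out, and 1 was negative (YGP1) when the filter was a mean of 10 TPM. In the window of 600 bases before the start codon, which also leaves out the 50 coding bases, 33 members held a site (39.6% of all genes), against 21 (21.6%). The log2 change of MSN2 in T3 against T1 turned to -0.0623 after median-of-ratios rescaling and -0.0917 after quantile normalization, in a range of -0.0819 to 0.142 with 1 library left out. That of FMP45 turned to -0.00651 after quantile normalization (-0.124 to 0.376 with 1 library left out), and SPI1 ranged from -0.356 to 0.229; the cause was not tested. The rescalings moved the median log2 change of all genes to -0.00417 and -0.0381, against 0.088. They ended the call of PHM7 (limma adjusted p = 0.0611 and 0.165), and quantile normalization that of UBI4, in T3 against T1. In T2 against T1 the rises were 14 after median-of-ratios rescaling, which ended the calls of NQM1, TMA10 and HOR7, and 15 after quantile normalization, which ended those of NQM1 and TMA10. In T3 against T2 they were 27 after median-of-ratios rescaling, which ended HSP12 and PHM7, and 25 after quantile normalization, which ended RGI1, NQM1, MSN4, ALD3 and PHM7. A member not called in the main test passed after quantile normalization. Fitting the replicate letter as a block left 32 rises and 1 fall in T3 against T1, and cost HOR7 its call in T2 against T1 (adjusted p = 0.06) and MSN4 and PHM7 theirs in T3 against T2 (0.0646 and 0.0501). The letters are not stated to pair the libraries: the differences of A and B correlated at 0.132 (T1 and T2), -0.0578 (T1 and T3) and -0.15 (T2 and T3). The number of libraries, 2 in each group, limits the precision of every value, and SIP18, with as few as 46 fragments, also has counting error.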
